A study of Mus musculus with 8 samples.

Results

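The genes described here are 50 genes of the cell cycle, grouped by the phase in which they act, and measured by RNA sequencing in regulatory (Tregs) and conventional (Tconvs) CD4+ T cells. They were found by gene name among the 52636 rows of the deposited table, where each of the 50 names occurred on 1 row. Of these, 27 were assigned to DNA replication and S phase and 23 to mitosis, though some, such as Ccna2, also act in another phase. A gene was tested when its value reached 60 in at least 2 libraries, which held for 48 of the 50 genes (25 replication and 23 mitotic) and for 12816 genes in all. E2f7 and Chek1 did not reach that level.

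CD27 is a costimulatory receptor of T cells, and the comparison made here is between mice with and without a transgene for its ligand, in each of the 2 subsets. The 4 groups were Tconvs and Tregs of CD27+/- control mice and Tconvs and Tregs of CD11c-Cd70tg;CD27+/- mice (CD70Tg), with 2 libraries in each group. In CD70Tg mice the CD11c promoter, which is active mainly in dendritic cells, drives CD70, the ligand of CD27. All mice had 1 functional copy of Cd27 and a Foxp3eGFP reporter, and were 6 to 8 weeks old. Spleen CD4+ cells were sorted into GFP+ Tregs and GFP- Tconvs at 200000 cells per library, after magnetic removal of other cells, which for Tconvs also took out CD25+ cells. Whether the libraries of a group came from separate animals or from pools is not given in the sources used here, so that the p-values measure only the spread between these libraries, which may be technical. The column names call the control groups KO and the sample labels call them WT, and they were taken as the CD27+/- controls.

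Cells entering S phase load the MCM helicase onto replication origins with the help of Cdc6 and Cdt1, and start synthesis with Cdc45, the GINS complex and the clamp Pcna, while ribonucleotide reductase (Rrm1, Rrm2), Tyms and Tk1 supply nucleotides. Many of these genes are controlled by E2F factors, which are held in check by the retinoblastoma proteins until cyclin D and cyclin E kinases act. Genes of G2 and mitosis, such as those of B-type cyclins, Cdk1, Polo and Aurora kinases, the spindle checkpoint and mitotic kinesins, carry a CHR element that often lies near CCAAT boxes. Through it the DREAM complex represses them in resting cells, and MuvB with B-Myb (Mybl2) and then Foxm1 switches them on later in the cycle. Resting T cells hold many MCM proteins without dividing, whereas mitotic transcripts are largely restricted to dividing cells, and Tregs are known to divide more than Tconvs in the unchallenged mouse.

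Promoters are shown for 7 members with the largest called change in their role, which hold a motif of either kind. They are given 5′ to 3′ on the strand of the gene, as up to 200 bases before the start of the RefSeq transcript (GRCm38.p6), with the motifs in capitals. Hells (chr19:38930790-38930944, plus strand) stands for the replication genes with an E2F site, and E2f8 (chr7:48881597-48881796, minus strand) for those with a CHR element and a CCAAT box. A motif on the opposite strand appears as its complement, TTCAAA for the CHR element and ATTGG for the CCAAT box. Of the mitotic genes, Cdk1 (chr10:69352913-69353112, minus strand), Kif11 (chr19:37376182-37376381, plus strand), Ube2c (chr2:164769729-164769927, plus strand) and Mki67 (chr7:135716380-135716579, minus strand) have CHR elements and CCAAT boxes, and Bub1 (chr2:127831860-127832059, minus strand) CCAAT boxes alone.
Hells: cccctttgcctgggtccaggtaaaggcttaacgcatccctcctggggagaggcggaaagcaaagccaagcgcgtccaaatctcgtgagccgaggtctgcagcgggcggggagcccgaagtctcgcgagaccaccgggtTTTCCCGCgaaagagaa
E2f8: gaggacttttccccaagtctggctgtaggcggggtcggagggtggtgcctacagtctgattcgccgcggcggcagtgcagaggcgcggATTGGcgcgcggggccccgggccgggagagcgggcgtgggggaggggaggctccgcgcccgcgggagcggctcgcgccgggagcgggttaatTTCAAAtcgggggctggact
Cdk1: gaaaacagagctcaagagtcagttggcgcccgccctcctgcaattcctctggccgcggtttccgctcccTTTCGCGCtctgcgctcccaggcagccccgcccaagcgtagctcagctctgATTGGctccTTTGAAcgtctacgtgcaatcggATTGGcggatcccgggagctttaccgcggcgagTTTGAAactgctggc
Kif11: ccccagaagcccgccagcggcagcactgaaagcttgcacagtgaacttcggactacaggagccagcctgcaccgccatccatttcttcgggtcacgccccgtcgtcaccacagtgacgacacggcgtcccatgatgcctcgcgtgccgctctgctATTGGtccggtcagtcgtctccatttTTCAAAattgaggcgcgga
Ube2c: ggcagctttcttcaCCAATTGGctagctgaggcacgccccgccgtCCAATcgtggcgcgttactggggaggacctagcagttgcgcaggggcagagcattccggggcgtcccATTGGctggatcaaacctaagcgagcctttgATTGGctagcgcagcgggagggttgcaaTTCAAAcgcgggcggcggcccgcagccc
Mki67: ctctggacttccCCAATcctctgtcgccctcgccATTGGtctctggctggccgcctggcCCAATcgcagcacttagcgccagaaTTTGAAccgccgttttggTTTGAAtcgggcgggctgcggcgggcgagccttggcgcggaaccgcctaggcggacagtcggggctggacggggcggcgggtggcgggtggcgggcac
Bub1: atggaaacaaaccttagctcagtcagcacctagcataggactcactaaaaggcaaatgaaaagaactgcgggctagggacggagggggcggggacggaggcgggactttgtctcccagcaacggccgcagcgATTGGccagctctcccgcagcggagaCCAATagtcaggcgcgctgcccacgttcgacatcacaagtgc

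The motifs were searched on both strands of RefSeq promoter windows from 250 bases before to 50 bases after each start, as exact letters: TTTCCCGC, TTTGGCGC, TTTCGCGC or TTTGCCGC for E2F, TTTGAA for the CHR element and CCAAT for the CCAAT box. The letters of no motif contain those of another. The table held 27 windows for 23 of the replication members and 18 windows for 18 of the mitotic members. The members not matched were Mcm4, Gins1, Gins2, Ccne2, Kif20a, Tpx2, Aurkb, Ccna2 and Foxm1. An E2F site was found in 10 of the 27 replication windows (37.0%) and in 1 of the 18 mitotic windows (5.56%), that of Cdk1, against 2.26% of all 32851 windows. The CHR element was found in 12 of the 18 mitotic windows (66.7%) and in 18.5% of the replication windows, against 17.9% of all. A CCAAT box was present in 83.3%, 63.0% and 37.4% of these windows, and a CCAAT box together with a CHR element in 66.7%, 14.8% and 6.95%. All 12 mitotic windows with a CHR element therefore also held a CCAAT box. In the printed promoters, the CHR element begins 19 bases before the start in Kif11, 20 in E2f8 and 29 in Ube2c, and at 2 places in Cdk1 (71 and 15 bases) and Mki67 (116 and 98 bases). The window of Tk1 held none of the 3 motifs. These matches describe letters in the windows, and binding of a factor was not measured.

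**Figure D1:**
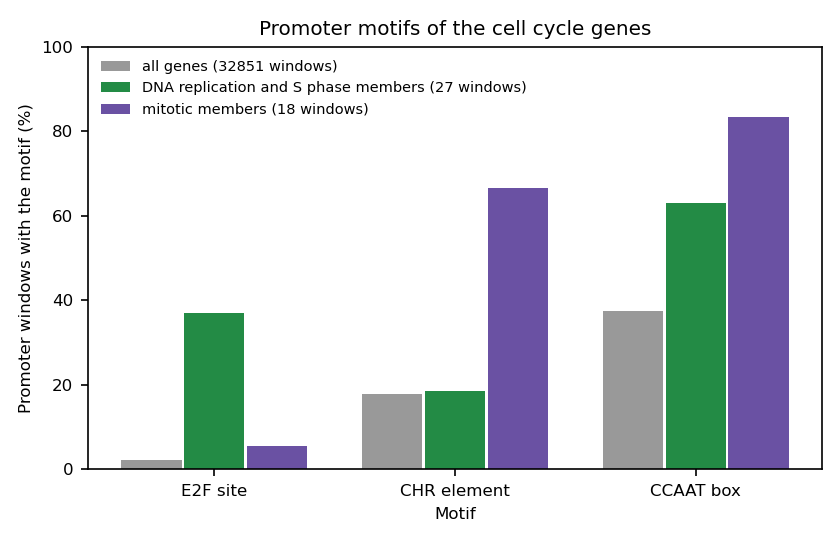
Share of RefSeq promoter windows (y axis, percent) that hold an E2F site, a CHR element or a CCAAT box (x axis), for all genes in grey, replication and S phase members in green and mitotic members in purple. The E2F site is most frequent in the replication windows (37.0%), and the CHR element in the mitotic windows (66.7%).

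The deposited values are read counts scaled by the authors to 20 M reads per library. The number of reads behind a library was estimated from the step between its low values, and ranged from 1.91 M (the first CD70Tg Treg library) to 33.14 M (the second CD70Tg Tconv library), where first and second give the order of the columns only. The value worth 3 reads, taken as the floor, lay between 2 and 9 in Tconv libraries and between 14 and 32 in Treg libraries. The members had a median of 35.5 reads in the shallowest library and of 621.5 in the deepest, and 4 members had fewer than 10 reads in the shallowest. Markers of T cells were high in all 8 libraries (71585 to 98172 summed over 5 genes), and those of Tregs summed to 54604 to 63193 in Tregs and 2695 to 3399 in Tconvs. In whole populations, a larger share of cycling cells and more transcript per cell cannot be told apart.

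**Figure D2:**
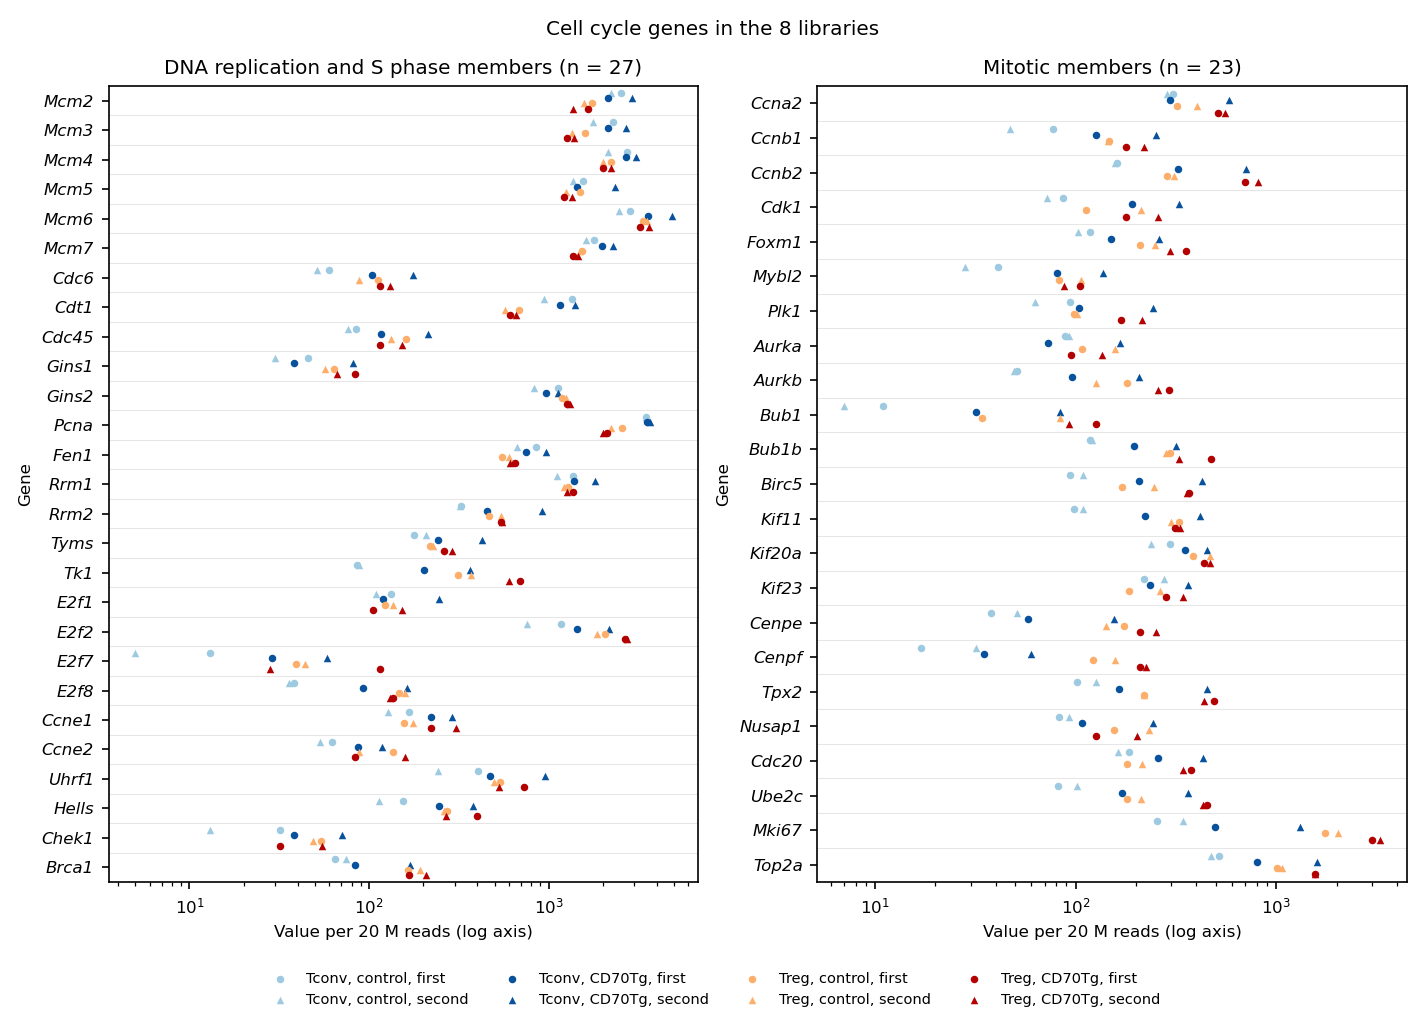
Value of each member (x axis, per 20 M reads, log axis) in the 8 libraries, with replication and S phase genes on the left and mitotic genes on the right. Circles are the first and triangles the second library of each group, and the colours give the groups. Most mitotic genes are lowest in the control Tconv libraries (light blue). Over all libraries, values span 2018 to 3662 for Pcna and 2461 to 4837 for Mcm6.

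In Tconvs, all 23 mitotic members had a positive log2 fold change in CD70Tg mice compared with controls, from 0.24 to 2.05 with a median of 1.18, where the median of all genes was 0.01. A gene was called when limma's adjusted p-value was under 0.05 and the log2 fold change over 1. By that rule 13 of the 23 mitotic members rose and 0 fell, whereas 4.07% of the 12816 genes were called higher and 0.577% lower. Another member, Cdc20, passed the p-value alone, as did 6.82% of all genes in that direction and 1.99% in the other. Both CD70Tg libraries lay above both control libraries for 20 of the 23 mitotic members (23.7% of all genes). Without the second CD70Tg Tconv library the mitotic median was 0.68, and without the first it was 1.71.

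Among the cyclins and their partners, Ccnb2, which encodes cyclin B2, had values of 160 and 157 in control and 323 and 706 in CD70Tg Tconvs. The groups did not overlap, and the log2 fold change was 1.56 ± 0.27 (SE, adjusted p = 0.0012). Cdk1, the kinase that drives entry into mitosis, was at 86 and 72 in controls and at 191 and 326 in CD70Tg libraries, a log2 fold change of 1.61 ± 0.34 (adjusted p = 0.0051). Ccnb1 and Mybl2 were also called, each with a log2 fold change of 1.50. Ccna2, encoding cyclin A2, which acts in S phase as well as G2, was at 305 and 285 in controls and at 294 and 581 in CD70Tg libraries, so that the groups overlapped (log2 fold change 0.48 ± 0.26, adjusted p = 0.34). It shares 12.5% of its exonic length with Exosc9 on the opposite strand. Foxm1 had a log2 fold change of 0.81 and an adjusted p of 0.089.

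Of the mitotic kinases and checkpoint genes, Bub1, a kinase of the spindle checkpoint, was near the floor in controls (11 and 7) and had 32 and 84 in CD70Tg Tconvs. Its log2 fold change of 2.05 ± 0.50 (adjusted p = 0.015) was the largest among the members and was measured from few reads. Birc5, which encodes survivin of the chromosomal passenger complex, was at 94 and 109 in controls and 208 and 427 in CD70Tg libraries (log2 fold change 1.51 ± 0.30, adjusted p = 0.0034). Aurkb, the kinase of the same complex, rose by 1.41 and Bub1b by 1.03 on the log2 scale. Plk1 did not pass the test, with 94 and 63 in controls and 104 and 242 in CD70Tg libraries (log2 fold change 1.00 ± 0.36, adjusted p = 0.11). For Aurka, the first CD70Tg library (73) lay below both controls (88 and 93) and the second (166) above them.

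Kif11, the kinesin that pushes spindle poles apart, had 98 and 109 in control and 222 and 419 in CD70Tg Tconvs, without overlap (log2 fold change 1.52 ± 0.27, adjusted p = 0.0014). Tpx2, a spindle assembly factor that activates Aurora A, had 102 and 126 in controls and 165 and 454 in CD70Tg libraries (log2 fold change 1.24 ± 0.34, adjusted p = 0.028). These were the only called genes among the 7 motor, kinetochore and spindle members. Cenpe, Cenpf, Nusap1, Kif20a and Kif23 had log2 fold changes of 1.03, 0.84, 0.84, 0.58 and 0.24, with adjusted p-values from 0.11 to 0.72. Kif20a shares 29.3% of its exonic length with a neighbour, and whether reads were counted by strand is not given in the sources used here.

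Ube2c, the ubiquitin-conjugating enzyme of the anaphase-promoting complex, was at 82 and 101 in controls and 170 and 362 in CD70Tg Tconvs (log2 fold change 1.40 ± 0.30, adjusted p = 0.006). Its exons overlap those of Tnnc2 on the opposite strand over 22.8% of their length. Cdc20, the activator of that complex, had 184 and 162 against 257 and 431 (log2 fold change 0.93 ± 0.26, adjusted p = 0.031). Mki67, which encodes the proliferation antigen Ki67 that coats mitotic chromosomes, had 254 and 344 in controls and 493 and 1311 in CD70Tg libraries (log2 fold change 1.43 ± 0.29, adjusted p = 0.0037). Top2a, the topoisomerase that untangles chromosomes, had 520 and 475 against 799 and 1606 (log2 fold change 1.18 ± 0.22, adjusted p = 0.0019). For these 4 genes, both CD70Tg libraries lay above both controls, with the second the higher.

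Of the 25 tested replication and S phase members, 5 were called higher in CD70Tg Tconvs, compared with 4.07% of all genes. They were Tk1, E2f8, Cdc6, Hells and Uhrf1, and Mcm6, Rrm2 and E2f2 passed the p-value alone. The median log2 fold change was 0.65 and all 25 had a positive sign. Without the second CD70Tg Tconv library the median was 0.26 with 1 call (Tk1), and without the first 0.98 with 10. Both CD70Tg libraries lay above both controls for 16 of the 25 (23.7% of all genes). None of the 12 genes of the replication machinery in the narrow sense (Mcm2 to Mcm7, Cdc45, Gins1, Gins2, Rrm1, Rrm2 and Pcna) was called, and their median log2 fold change was 0.32. Of the 10 mitotic genes of the cyclin B, Plk1, Bub, Kif and Cenp families, 5 were called, with a median of 1.03. Without the second CD70Tg Tconv library, the medians of these 12 and 10 genes were 0.13 with 0 calls and 0.59 with 2 calls (Ccnb2 and Kif11). Without the first they were 0.50 with 2 and 1.65 with 7, and without the second control library 0.22 with 0 and 1.19 with 2. No test of the difference between the 2 sets of genes was made.

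Within the licensing and fork genes, Pcna, the sliding clamp of DNA polymerases, had 3492 and 3468 in control and 3550 and 3662 in CD70Tg Tconvs, a log2 fold change of 0.05 ± 0.11 (adjusted p = 0.88). Mcm2, a subunit of the helicase, overlapped between groups, with 2530 and 2219 in controls and 2147 and 2920 in CD70Tg libraries (log2 fold change 0.08 ± 0.15, adjusted p = 0.86). Mcm6, a further subunit, had 2847 and 2461 against 3593 and 4837 and rose by 0.65 ± 0.14 on the log2 scale (adjusted p = 0.0052). The other 4 Mcm subunits (Mcm3, Mcm4, Mcm5 and Mcm7) had log2 fold changes from 0.26 to 0.32, with adjusted p-values from 0.15 to 0.39. Cdc6, the loader of the helicase, was the only called member of this role, at 60 and 51 in controls and 104 and 175 in CD70Tg libraries (log2 fold change 1.22 ± 0.33, adjusted p = 0.029). Its partner Cdt1 had a log2 fold change of 0.18 (adjusted p = 0.68). Gins2 and Fen1, at 0.11 and 0.17, share 67.3% and 84.2% of their exonic length with other genes, so that their values are uncertain.

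Of the genes of nucleotide supply, Tk1, the thymidine kinase of S phase, was at 86 and 88 in control and 202 and 366 in CD70Tg Tconvs (log2 fold change 1.59 ± 0.26, adjusted p = 0.00064), and both CD70Tg libraries lay above the controls. Rrm2, the regulatory subunit of ribonucleotide reductase, had 324 and 321 against 456 and 919 (log2 fold change 0.99 ± 0.25, adjusted p = 0.015). Its partner Rrm1, the catalytic subunit, had a log2 fold change of 0.37 (adjusted p = 0.17), and Tyms, the thymidylate synthase, of 0.73 (adjusted p = 0.11).

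E2f8, a repressor among the E2F factors that is itself switched on in S phase, had 38 and 36 in controls and 93 and 163 in CD70Tg Tconvs (log2 fold change 1.61 ± 0.33, adjusted p = 0.0038). E2f2, an activating E2F factor, rose by 0.90 ± 0.19 (adjusted p = 0.0049), from 1169 and 762 to 1444 and 2166. E2f8 and Ccne2 share 11.2% and 17.4% of their exonic length with genes on the opposite strand. E2f1, another activator, and the cyclin E genes Ccne1 and Ccne2 did not pass the test, with log2 fold changes of 0.49, 0.77 and 0.77. Hells, a chromatin remodeller, and Uhrf1, which keeps up DNA methylation at the fork, rose by 1.18 and 1.09 on the log2 scale, whereas Brca1 had a log2 fold change of 0.75 (adjusted p = 0.22). Of the members left out of the test, E2f7, another repressor, had 13 and 5 in control and 29 and 58 in CD70Tg Tconvs, and 39 and 44 against 115 and 28 in Tregs. The checkpoint kinase gene Chek1 had 32 and 13 against 38 and 71 in Tconvs, and 54 and 49 against 32 and 55 in Tregs.

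Over the members, the 2 CD70Tg Tconv libraries differed from each other more than those of any other group. The second was above the first for all 48 tested members, and for 73.9% of all genes. The median difference on the log2(value + 5) scale was 0.77 over the members and 0.17 over all genes. It was 1.00 over the mitotic members, 0.58 over the replication members and 0.36 over the 13 licensing and fork genes. The difference exceeded 1 for 15 members (12 mitotic and 3 replication), which held for 1.99% of all genes. It ranged from 0.04 for Pcna to 1.43 for Tpx2.

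For Mki67, the ratio of the second to the first CD70Tg Tconv library was 2.66, with a 95% interval from 2.28 to 3.13, and for Pcna it was 1.03 (0.97 to 1.10). The interval lay above 1 for 47 of the 50 members, and the exceptions were Pcna, Ccne2 and Cenpf. Intervals were not computed for all genes, of which 73.9% were higher in the second library. The count is therefore not read as a trait of these genes. In control Tconvs the interval lay above 1 for 1 and below 1 for 14 members. It lay above for 2 and below for 3 in control Tregs, and above for 0 and below for 2 in CD70Tg Tregs. These counts depend on depth and are not compared between groups, since the members had median reads of 35.5 to 62.0 in Treg libraries and the intervals there were wide, as for Ccne2 in CD70Tg Tregs (ratio 1.88, 0.844 to 4.79). It was computed from the estimated reads of the pair by the exact binomial method and covers counting error only. In the other groups, the median difference between the libraries was -0.18 in control Tconvs, 0.08 in control Tregs and 0.09 in CD70Tg Tregs. The second CD70Tg Tconv library was also the deepest, at 33.14 M reads against 6.92 M in the first, and the part of depth in the difference was not tested.

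**Figure D3:**
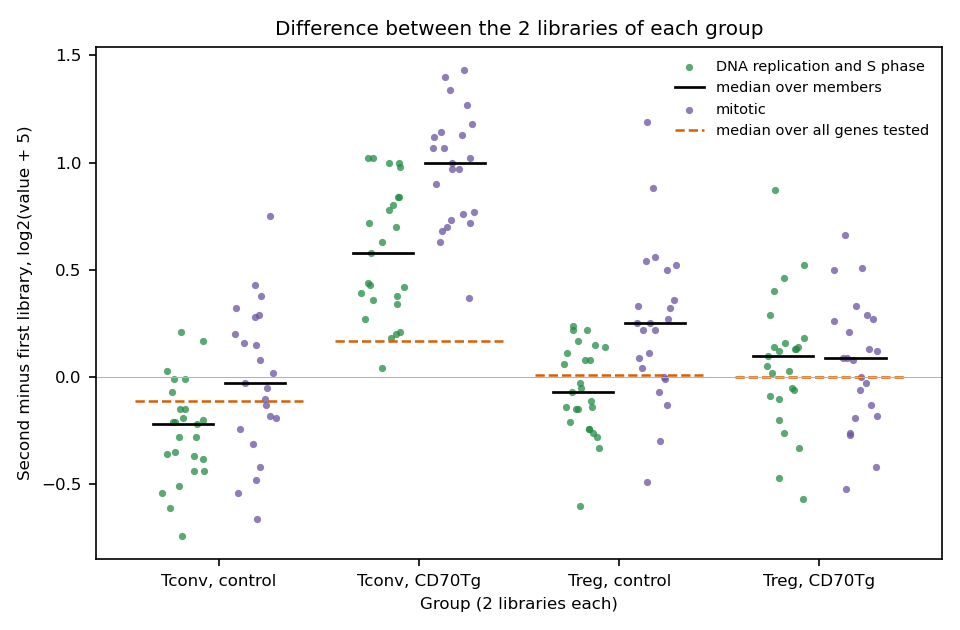
Difference between the 2 libraries of each group (y axis, second minus first, log2(value + 5)) for each tested replication (green) and mitotic (purple) member, by group (x axis). Black bars are medians over the members and dashed orange lines are medians over all genes tested. In CD70Tg Tconvs all members lie above 0, with medians of 0.58 and 1.00, and in control Tconvs most replication members lie below 0, with a median of -0.22.

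Compared with the mean of the controls, the first CD70Tg Tconv library had a median log2 difference of 0.68 over the mitotic members, 20 of which lay above both controls, and the second of 1.71, with 23 of 23 above both. The corresponding values for the replication members were 0.26 (16 of 25 above both) and 0.98 (24 of 25). For the licensing and fork genes they were 0.04 (5 of 13) and 0.42 (12 of 13). The share of all genes above both controls in a single library was not computed, so that these counts cannot be weighed against it. Aurka, Ccna2 and Kif23 were the mitotic members that did not lie above both controls in the first library. When the second library was left out, 3 of the 18 calls were kept (Ccnb2, Kif11 and Tk1), and when the first was left out, 28 members were called, among them the 18. Without the second control library, 9 members were called. In these fits the lone library of a group is assumed to vary like the other groups.

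In Tregs, 2 of the 23 mitotic members, Ccnb2 and Ube2c, were called higher in CD70Tg mice, and the others did not pass the test. The median log2 fold change of the 23 was 0.56, and 21 had a positive sign, where the median of all genes was -0.05. Of all 48 members, 2 were called higher and 0 lower, compared with 2.53% and 1.08% of all genes. The replication members had a median of 0.07 (15 of 25 positive), and the licensing and fork genes of -0.00 (5 of 13 positive). Tk1 passed the p-value alone. In this comparison 3.94% of all genes passed the p-value in the higher and 3.46% in the lower direction. Both CD70Tg libraries lay above both controls for 17 mitotic and 9 replication members (22.5% of all genes).

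Ccnb2 had 287 and 311 in control and 701 and 811 in CD70Tg Tregs, without overlap (log2 fold change 1.32 ± 0.27, adjusted p = 0.0071). Ube2c had 180 and 211 against 450 and 430 (log2 fold change 1.15 ± 0.30, adjusted p = 0.029), and Tk1 had 311 and 368 against 690 and 599 (log2 fold change 0.92 ± 0.26, adjusted p = 0.043). Without the first or the second control Treg library, 0 and 1 members were called, and without the first or the second CD70Tg Treg library, 1 and 0. With limma-voom on the estimated reads, 0 were called. Over all alternatives, the log2 fold change of Ccnb2 lay between 1.22 and 1.43 and that of Ube2c between 1.04 and 1.27, so that the p-value changed more than the size of the difference. Their highest adjusted p-values were 0.12 and 0.21.

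Several other mitotic members had CD70Tg Treg values above both controls without passing the test. Tpx2 had 219 and 219 in controls and 492 and 435 in CD70Tg libraries (log2 fold change 1.06 ± 0.34, adjusted p = 0.069). Mki67 had 1757 and 2045 against 3020 and 3301 (log2 fold change 0.73 ± 0.29, adjusted p = 0.15). Top2a had 1005 and 1073 against 1568 and 1566 (log2 fold change 0.59 ± 0.22, adjusted p = 0.12). Not all mitotic genes had this pattern. Kif11 had 326 and 298 in control and 314 and 332 in CD70Tg Tregs (log2 fold change 0.05 ± 0.27), Mybl2 had a log2 fold change of 0.03, and Nusap1 and Aurka had -0.25 and -0.19. Among the replication genes, Pcna had 2577 and 2220 in controls and 2111 and 2018 in CD70Tg libraries (log2 fold change -0.21 ± 0.11, adjusted p = 0.31), and Mcm6 had 3339 and 3529 against 3239 and 3632 (-0.00 ± 0.14).

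**Figure D4:**
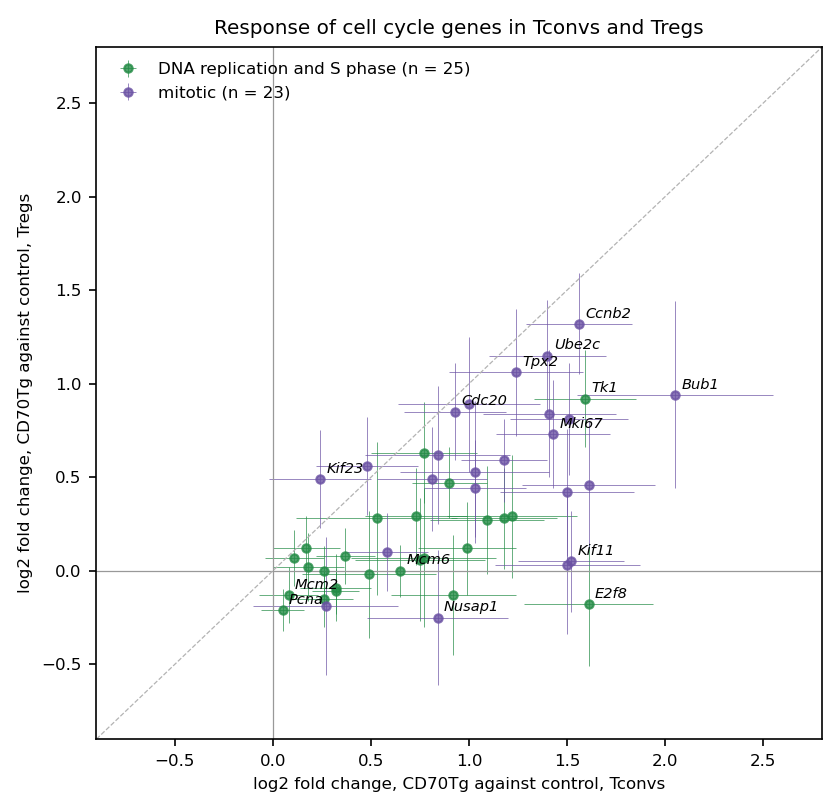
Log2 fold change between CD70Tg and control mice in Tconvs (x axis) and in Tregs (y axis) for the 48 tested members, with standard errors from limma. Replication genes are green and mitotic genes purple, and the dashed line marks equal values. All points lie to the right of 0 on the x axis, and all but 2 lie below the dashed line.

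The response was smaller in Tregs than in Tconvs for 46 of the 48 members, as it was for 61.1% of all genes. The exceptions were Kif23 and Ccna2. Tested in the same fit, the difference between the responses passed the adjusted p-value for 0 members with limma, and for 1.02% of all genes. At an unadjusted p-value under 0.05 there were 11 members and 1372 genes in all. The lowest adjusted p was that of E2f8 (0.089), with a difference of -1.79. When the first CD70Tg Tconv library was left out, 6 members passed, and the median difference over all members went from -0.47 to -0.88. Without the second, it was -0.12 (0.01 for the mitotic members), and the response was smaller in Tregs for 31 of the 48 members and for 50.8% of all genes. The smaller response in Tregs thus rested largely on the second CD70Tg Tconv library. Both CD70Tg libraries lay above both controls in Tconvs and below both in Tregs for 3 members (E2f8, Mcm7 and Pcna) and for 3.64% of all genes. A difference between the subsets in the response of these genes was therefore not shown, which does not show that the responses were alike.

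Averaged over the mitotic members on the log2(value + 5) scale, the level was 6.71 and 6.70 in control Tconvs, 7.35 and 8.32 in CD70Tg Tconvs, 7.69 and 7.94 in control Tregs, and 8.34 and 8.41 in CD70Tg Tregs. The level of these genes in the second CD70Tg Tconv library was thus within the range of the Treg libraries. Averaged over the replication members, it was 8.73 and 8.48, 8.96 and 9.55, 9.02 and 8.96, and 9.07 and 9.14 in the same order. The mitotic average minus the replication average was -2.02 and -1.78 in control and -1.61 and -1.22 in CD70Tg Tconvs, and -1.33 and -1.02 in control and -0.73 and -0.73 in CD70Tg Tregs. In each subset it was higher in both CD70Tg libraries than in both control libraries.

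**Figure D5:**
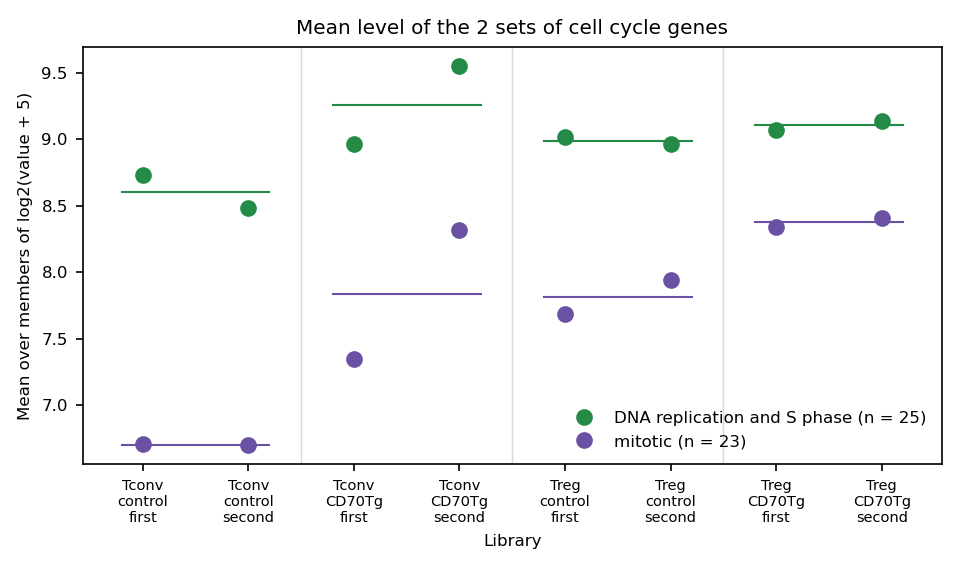
Mean of log2(value + 5) over the tested replication members (green, 25 genes) and mitotic members (purple, 23 genes) in each of the 8 libraries (x axis), with a line at the mean of each group of 2 libraries. The mitotic mean spans 6.70 to 8.41 and the replication mean 8.48 to 9.55, and the 2 CD70Tg Tconv libraries lie furthest apart.

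The subsets were also compared within each genotype. In controls, 13 of the 23 mitotic members were called higher in Tregs than in Tconvs, with a median log2 difference of 1.06, and 4 of the 25 replication members (Tk1, E2f8, Brca1 and E2f2), with a median of 0.33. No member was called lower. Without the second control Treg library 8 mitotic members were called, with a median of 0.92, and without any other library 9 to 15. In this comparison 14.7% of all genes were called higher and 4.43% lower, and their median was 0.07. With median-of-ratios scaling factors, 12 members were called higher, 9 mitotic and 3 replication. At the p-value alone, 26 members were higher (27.5% of all genes) and 4 were lower (18.4%), namely Mcm2, Mcm3, Cdt1 and Pcna.

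Mki67 had the largest difference, from 254 and 344 in control Tconvs to 1757 and 2045 in control Tregs (log2 difference 2.66 ± 0.29, adjusted p = 2e-06). Cenpf, a kinetochore protein gene, had 17 and 32 against 122 and 158 (2.33 ± 0.37, adjusted p = 1e-04). Kif11, E2f8 and Tk1 were higher by 1.55, 1.90 and 1.90 on the log2 scale. In the other direction, Pcna had 3492 and 3468 in control Tconvs and 2577 and 2220 in control Tregs (log2 difference -0.54 ± 0.11, adjusted p = 0.0012). Cdt1 had 1344 and 944 against 680 and 574 (-0.85 ± 0.18, adjusted p = 0.00099). Within the licensing and fork genes, Cdc45 and Mcm6 passed the p-value in the higher direction, at 0.82 (adjusted p = 0.048) and 0.37 (adjusted p = 0.037). The share of members lower at the p-value was below that of all genes, so that nothing is read from it for the set.

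In CD70Tg mice, 4 members were called higher in Tregs (Mki67, Cenpf, Cenpe and Tk1; 12.3% of all genes) and Cdt1 lower (4.94%). At the p-value alone there were 7 members higher (22.6% of all genes) and 7 lower (20.1%), the latter being Mcm2, Mcm3, Mcm4, Mcm5, Mcm7, Pcna and Cdt1. Each of these shares of the 48 members was below that of all genes, so that nothing is read from the counts for the set. The median log2 difference was 0.36 for mitotic and -0.23 for replication members. It was 0.85 and 0.19 without the second CD70Tg Tconv library and -0.04 and -0.54 without the first. Mki67 had 493 and 1311 in CD70Tg Tconvs and 3020 and 3301 in CD70Tg Tregs (1.97 ± 0.29, adjusted p = 6.2e-05), and Pcna had 3550 and 3662 against 2111 and 2018 (-0.80 ± 0.11, adjusted p = 4.4e-05). Kif11 had 222 and 419 against 314 and 332, and the groups overlapped (0.08 ± 0.27, adjusted p = 0.84). When the second CD70Tg Tconv library was left out, 11 members were called higher and 0 lower, and when the first was left out, 2 were called higher and 2 lower. The comparisons within a genotype share libraries with those between genotypes and are not independent of them.

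Other genes of the pathway were read from lists of 7 CDK inhibitors, 16 genes of the G1 machinery, 30 other replication genes and 44 other mitotic genes. Of the other mitotic genes, 41 were tested. In Tconvs, 6 were called higher (Prc1, Ncapg, Kif15, Ckap2l, Cdca3 and Ncaph) and 0 lower, with a median log2 fold change of 0.85, where 4.07% of all genes were called higher. In Tregs 0 were called (2.53% of all genes), with a median of 0.41. In Tregs 3 passed the p-value alone in the higher direction (Prc1, Pttg1 and Cdc25b) and Smc4, a condensin subunit, in the lower, with a log2 fold change of -0.48, against 3.94% and 3.46% of all genes. Prc1, which bundles microtubules at the spindle midzone, had 111 and 126 in control and 274 and 433 in CD70Tg Tconvs (log2 fold change 1.50 ± 0.24, adjusted p = 0.00046), and 282 and 285 against 492 and 512 in Tregs (log2 fold change 0.81, adjusted p = 0.048). Of the 30 other replication genes, 1 was called in Tconvs (Rpa2, a subunit of the protein that coats single-stranded DNA, log2 fold change 1.15), with a median of 0.19, and 0 in Tregs, with a median of -0.14. That count is no more than the share of all genes called. The other genes thus showed the same order of medians as the members, mitotic above replication, in both subsets.

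Of the G1 genes, Cdk6, a cyclin D kinase, had 287 and 262 in control and 801 and 923 in CD70Tg Tconvs, and 1272 and 1191 against 1881 and 1724 in Tregs. It rose by 1.63 ± 0.15 on the log2 scale in Tconvs, with an adjusted p of 1.1e-06. In Tregs it rose by 0.55 ± 0.15, with an adjusted p of 0.031, and the responses differed by -1.08 (adjusted p = 0.015). Unlike in most members, the 2 CD70Tg Tconv libraries were close to each other for Cdk6. Rbl2, Rbl1 and Tfdp1 rose in Tconvs by 0.83, 0.48 and 0.47, whereas Ccnd2, encoding cyclin D2, had a log2 fold change of -0.41 (adjusted p = 0.043). Myc was lower in both subsets, with 2181 and 2030 in controls and 1473 and 1473 in CD70Tg Tconvs (log2 fold change -0.51 ± 0.12, adjusted p = 0.0084), and 3247 and 3008 against 2383 and 2181 in Tregs (-0.45, adjusted p = 0.025). The other 10 G1 genes did not pass the test in either subset.

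Among the CDK inhibitors, Cdkn1a, which encodes p21, rose in Tconvs from 50 and 17 to 113 and 322 (log2 fold change 2.5 ± 0.48, adjusted p = 0.0023), and had 68 and 44 against 147 and 147 in Tregs (1.35, adjusted p = 0.1). Its 2 CD70Tg Tconv libraries differed in the same direction as those of the members. Cdkn2a and Cdkn2b were not tested, and had 6 and 3 and 3 and 0 in control Tconvs, at or near the floor, and 44 and 119 and 29 and 58 in CD70Tg Tconvs. Cdkn1b, which encodes p27, had log2 fold changes of 0.05 and 0.02 in Tconvs and Tregs.

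Markers of other cell types were low beside those of T cells, but some moved with the groups. In Tregs, 7 erythroid markers summed to 508 and 1391 in controls and 3430 and 2141 in CD70Tg libraries, 5 neutrophil markers to 5 and 5 against 191 and 171, with Elane and Mpo at or under the floor in all libraries, and 5 dendritic cell markers to 94 and 156 against 389 and 356. In Tconvs, the dendritic cell markers summed to 66 and 133 in controls and 177 and 340 in CD70Tg libraries, 2 CD8 markers to 720 and 681 against 1563 and 1590, and 4 NK cell markers to 417 and 444 against 81 and 88, with Ncr1 and Klra8 at or under the floor in all libraries. Erythroid markers summed to 753 and 1353 in control and 862 and 824 in CD70Tg Tconvs, and neutrophil markers to 17 and 10 against 6 and 18, with overlap between the groups in both cases. In Tregs the CD8 markers summed to 317 and 417 in controls and 660 and 631 in CD70Tg libraries, and the NK cell markers to 64 and 36 against 0 and 11. B cell markers summed to 176 and 151 in control and 61 and 89 in CD70Tg Tconvs, and to 254 and 379 against 473 and 426 in Tregs, and those of macrophages and monocytes to 1703 and 1809 against 1107 and 1474 and to 3958 and 3791 against 3482 and 3320. Markers of germinal centre B and plasma cells overlapped between the groups in both subsets (1558 to 2205). Their part in the values of the cell cycle genes was not tested.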

How the data were processed

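The 8 libraries of sorted spleen T cells, 2 in each of 4 groups, were sequenced by the authors after low-input amplification. The deposited score values are whole numbers, made by the authors from HTSeq read counts that were put on a common scale of 20 M reads and rounded up. The submitters' processing notes name Trimmomatic 0.36, STAR 2.5.3 (mm10) and HTSeq 0.9.1. Raw counts were not used, so that no count model was fitted.

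Of 52636 rows, 4131 with clone-derived names were dropped, since their low values follow the step of another library. Of the 97 names found on several rows, the row with the largest total kept the name. The test was limma 3.58.1 (R 4.3.3, 4 group coefficients, trended prior with 12.3 degrees of freedom) on log2(value + 5), which understates the change of low genes, over the 12816 genes that reached 60 in 2 libraries or more. Benjamini-Hochberg adjustment ran over all of these, separately for every contrast. Called genes had an adjusted p under 0.05 with a log2 change beyond 1 in either direction. Columns carry no replicate numbers and were assigned to groups by name. Totals lay between 19963628 and 20164600. Reads were estimated from the step of low values, less surely for the first control and the second CD70Tg Tconv libraries (steps of 1.025 and 0.601). In simulated data with 200 genes changed 4-fold among 12816, 97.0% were recovered at the read depths of Tconvs and 92.0% at those of Tregs. There were 3 and 1 false calls. The spread between simulated libraries was a set value and was not estimated from these groups. The rates therefore do not hold for smaller changes or for libraries that differ more.

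The members, lists, motifs and tests were chosen with earlier results of these data known. All members could be named, and genes of the other lists where they passed the test. Cdkn1b, Cdkn2a, Cdkn2b and the single markers were named after their values were seen. Exon overlaps came from GENCODE M21 (GRCm38). Promoters came from RefSeq, for the largest called change in each role and for Mki67, and each ends at most 30 bases after the GENCODE start. Cdc6, whose RefSeq start lies further inside its GENCODE gene, and Tk1, with no motif, are not shown.

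Alternatives were pseudocounts of 1 and 20, other filters and scaling factors, limma-voom on the estimated reads, the libraries of a subset alone, a rule without the fold change, an adjusted p under 0.01, and leaving out each library in turn, which for the medians of roles was added after the data were seen.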

Additional observations from a re-analysis of the deposited data

Results flagged for a closer look

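For 3 members, both CD70Tg libraries lay above both controls in Tconvs and below both controls in Tregs, which held for 3.64% of all genes. The difference between the responses (Treg minus Tconv, log2) was tested in the same limma fit and did not pass for any of them. It was -1.79 for E2f8 (adjusted p = 0.089), an E2F repressor that shares 11.2% of its exonic length with a gene on the opposite strand, with 38 and 36 against 93 and 163 in Tconvs and 146 and 158 against 136 and 131 in Tregs. It was -0.42 for Mcm7 (adjusted p = 0.39), a helicase subunit that shares 12.6% of its exonic length with other genes, with 1800 and 1624 against 1988 and 2283 in Tconvs and 1529 and 1502 against 1359 and 1458 in Tregs. It was -0.26 for Pcna (adjusted p = 0.62), the replication clamp, with 3492 and 3468 against 3550 and 3662 in Tconvs and 2577 and 2220 against 2111 and 2018 in Tregs. No cause was tested.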

How the results depend on the processing

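Of 281 values of counts and medians under the alternatives, 254 stayed within 1.5 times the count or within the spread between libraries. Of 710 values of single called members, 616 kept their direction and their side of the threshold, 94 kept the direction only, and 0 reversed. Both totals include fits that left out a library of neither group compared. Leaving out a Treg library, for example, kept all 18 calls in Tconvs. The totals thus overstate how stable the calls are. Members called higher in Tconvs numbered 18, and 1 when every row above 0 was tested, 10 at an adjusted p under 0.01, 27 with limma-voom on the estimated reads (19 mitotic and 8 replication, the 18 among them), and 3 to 28 when a library was left out, with the lowest count without the second and the highest without the first CD70Tg Tconv library. In Tregs the count of 2 became 0 with every row tested, 0 with limma-voom, 1 at an adjusted p under 0.01, and 0 to 3 without a library. Members past the test of the difference between the responses numbered 0 to 6 without a library. For Tregs against Tconvs in controls, 26 members were higher and 4 lower with no threshold on the fold change, against 17 and 0, and leaving out a library gave 12 to 18 higher and 0 to 1 lower. In CD70Tg mice, 4 higher and 1 lower became 7 and 7 with no threshold on the fold change, 2 to 11 and 0 to 2 without a library, and 0 were lower with a pseudocount of 20 or upper quartile factors. With a library left out, the median of the replication members was 0.26 to 0.98 in Tconvs (0.65 with all libraries) and -0.54 to 0.19 for Tregs against Tconvs in CD70Tg mice (-0.23 with all libraries), with 0.26 and 0.19 without the second and 0.98 and -0.54 without the first CD70Tg Tconv library. The mitotic median in that comparison was -0.04 to 0.85 (0.36 with all libraries), at the same 2 libraries. Apart from the settings that change the threshold or leave out a library, the cause was not tested. No paired analysis was possible because the columns do not carry the replicate numbers of the sample titles. Low members in Tregs rest on few reads, and differences in them below the fold seen in simulated data may be missed.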
